A study of Mus musculus with 6 samples.

Results

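The 39 autophagy and lysosome genes described here were followed in 6 RNA-seq libraries of mouse pancreatic islets. They were chosen by function as a fixed list of symbols, with earlier results of these data known. The list runs from the proteins that start and build the autophagosome to the regulators, membrane proteins, hydrolases and proton pump of the lysosome. All 39 were found among the 55421 gene IDs of the count tables, and all 39 were among the 17016 genes with enough counts to be tested. The tested condition was the ligand insB:9-23 (3 libraries) and the comparison condition was vehicle (3 libraries). All 6 libraries came from islets of WT C57BL/6 mice. The name insB:9-23 is that of a stretch of the insulin B chain known as a target of islet autoimmunity, and the study asked which islet genes and pathways the ligand acts on. The sources used here give neither dose, route, duration nor age, and leave it unclear if the ligand went to the animals or to islets in culture. Whole islets were sequenced, so each value sums over endocrine cells and whatever other cells came with them, and fewer cells of a type and less RNA per cell cannot be told apart.

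Autophagy encloses cytoplasm in a double membrane that then fuses with the lysosome. ULK kinases start the process, the Beclin 1 and PIK3C3 lipid kinase complex marks the membrane, ubiquitin-like conjugation attaches ATG8 proteins (the LC3 and GABARAP families) to it, and cargo receptors bind those ATG8 proteins. Lysosomal hydrolases, kept acid by the vacuolar proton pump (V-ATPase), degrade what arrives, and the transcription factors TFEB and TFE3 drive many of these genes through an E-box element in their promoters. In beta cells both routes are known for removing worn organelles and surplus insulin granules.

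No gene of the 39 passed the test, and the libraries of the groups overlapped for all but 7 of them. In edgeR's quasi-likelihood test over all genes, 0 of the 39 had an adjusted p below 0.05, with the lowest adjusted p at 0.88. DESeq2 also called 0 of them. Among all 17016 genes, edgeR called 14, which is 0.0823%, and DESeq2 called 116. An unadjusted p below 0.05 was found for 3 of the 39 (7.69%), namely Ulk1 with the higher level in insB:9-23, and Hexa and Psap with the lower; 5.55% of all genes tested had such a p. The groups did not overlap for 7 of the 39 (17.9%), against 13.5% of all genes. Map1lc3b and Ulk1 lay wholly higher in insB:9-23, where 6.4% of all genes did so, and Nbr1, Atg5, Ctsa, Hexa and Psap wholly lower, where 7.12% did so. Genes in the same range of mean level, 4.64 to 709.7 CPM (counts scaled to library size by TMM), are the closer background. Of these 10412 genes 6.48% had an unadjusted p below 0.05 and 14.8% had groups that did not overlap. Wholly higher in insB:9-23 were 603 of the 10412, and wholly lower 938. The members' shares were near these backgrounds.

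The 39 log2 fold changes, insB:9-23 over vehicle, ran from -0.37 to 0.83 with a median of -0.05, beside 0.01 over all genes and -0.01 over genes in the same range of level. They lay within 0.2 of zero for 29 members and were over 0.3 in size for 4. Of the 39, 16 lay above zero and 23 below (59%); of the genes in the same range 53.4% lay below. With libraries scaled by their totals alone 34 members lay below zero, where the median of all genes was -0.15. The 18 autophagy members split 9 above and 9 below zero with a median of 0.00, and the 21 lysosome members split 7 and 14 with a median of -0.09. The standard errors ran from 0.056 to 0.60 with a median of 0.094, beside 0.23 over all genes, and 22 members had one of at most 0.1.

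**Figure D1:**
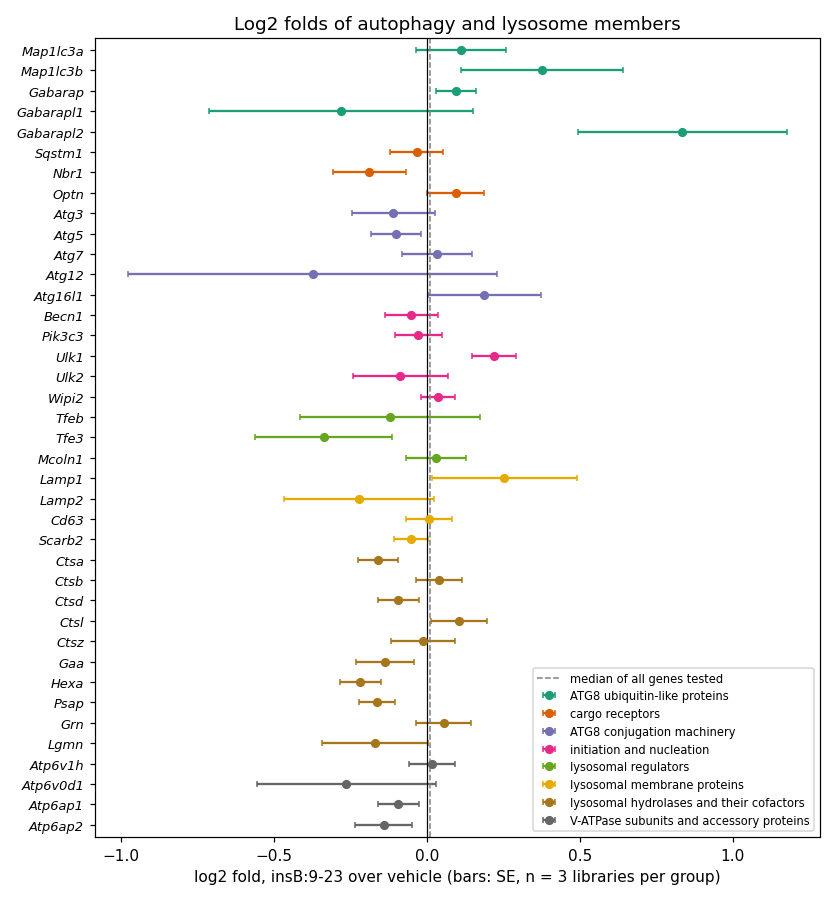
Log2 fold changes (insB:9-23 over vehicle) of the 39 members by role, with bars of 1 standard error from edgeR and a dashed line at the median of all genes tested. The points run from -0.37 for Atg12 to 0.83 for Gabarapl2, and 29 lie within 0.2 of zero; no gene passed an adjusted p of 0.05.

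The libraries held 52052808 to 58880189 counts each, and every member had counts in every library, from 125 to 48071. The members took 0.443%, 0.478% and 0.348% of all counts in insB:9-23 replicates 1 to 3, against 0.493%, 0.48% and 0.478% in vehicle replicates 1 to 3. These and the marker shares below are of library totals, so a larger share of some genes leaves less for others. Scaled by TMM, the members summed to 4425, 4571 and 4318 CPM in insB:9-23, against 4559, 4531 and 4660 in vehicle, which overlapped. In the library with the lowest share, insB:9-23 replicate 3, 26 acinar markers took 27.5% of counts, against 16.3% to 20.4% in the other libraries, and 11 beta cell markers took 9.48%, against 11.8% to 13.7%. All 26 acinar markers had counts in every library, so exocrine RNA was present throughout; of the beta cell markers Mafa was at 0 in all 6 libraries and the other 10 had counts in all. Macrophages are rich in lysosomes, and 13 of their markers, all with counts in every library, summed to 0.0127%, 0.0195% and 0.00771% of counts in insB:9-23 replicates 1 to 3, against 0.0108% to 0.0127% in vehicle libraries. The 10 lymphocyte markers reached 0.007% in insB:9-23 replicate 2 and at most 0.00117% elsewhere, with Cd3d at 0 in 1 library. Duct markers took 0.031% to 0.0382% in insB:9-23 and 0.0317% to 0.036% in vehicle, and endothelial markers 0.0344% to 0.0458% in insB:9-23 and 0.0455% to 0.0515% in vehicle. The part of these cell types in the members' values was not tested, other than by the acinar covariate given below.

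Promoter sequences are shown because the E-box CACGTG, the core of the element that TFEB and TFE3 bind, recurs among these genes. RefSeq (GRCm38.p6) windows from 250 bases before to 50 bases after the start were matched for 32 of the 39 members. A gene with several starts has several windows, and counts as holding a motif if any of them does, so such genes had more chances to match. CACGTG, which is its own reverse complement, stood in 11 of these 32 genes (34.4%), in 32 of 138 other autophagy and lysosome genes (23.2%) and in 2187 of 27025 genes in all (8.09%). The longer palindrome TCACGTGA, which contains CACGTG, stood in 5 of 32 members (15.6%), in 13 of 138 of the other pathway genes (9.42%) and in 304 of all genes (1.12%). By role, CACGTG was found in 5 of 9 genes of hydrolases and their cofactors with a window, and in 0 of 4 of the ATG8 genes. In the conjugation machinery it was found in 3 of 3 genes with a window, while Atg12 and Atg16l1 had no window. For Ctsa and Lgmn the match stood only in the more downstream of their windows, which lies inside the gene. The only window of Atg7, chr6:114670846-114671145, lies inside the gene, whose first base is 114643097. That of Ctsl, chr13:64370471-64370770 on the minus strand, also lies inside its gene, chr13:64359337-64370890. The stretches around the matches are shown 5′ to 3′ on the gene's strand for the 5 members with the longer form and for Lamp1, which had 4 copies of the shorter; capitals mark the matches. A further CACGTG of Ctsd, near the far end of its window, lies outside the stretch.
Atg3 (chr16:45158695-45158804, plus strand): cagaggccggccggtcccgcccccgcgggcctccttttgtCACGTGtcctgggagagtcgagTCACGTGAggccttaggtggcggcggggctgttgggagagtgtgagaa
Mcoln1 (chr8:3500408-3500520, plus strand): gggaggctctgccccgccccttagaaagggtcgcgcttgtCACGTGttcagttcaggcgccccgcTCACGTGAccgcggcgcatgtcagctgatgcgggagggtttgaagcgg
Lamp1 (chr8:13159060-13159191, plus strand): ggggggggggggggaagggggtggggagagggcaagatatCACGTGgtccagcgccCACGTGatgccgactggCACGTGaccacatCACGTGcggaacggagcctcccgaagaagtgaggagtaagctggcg
Ctsa (chr2:164833720-164833822, plus strand): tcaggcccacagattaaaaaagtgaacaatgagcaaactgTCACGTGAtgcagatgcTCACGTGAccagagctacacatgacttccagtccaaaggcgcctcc
Ctsd (chr7:142387879-142387966, minus strand): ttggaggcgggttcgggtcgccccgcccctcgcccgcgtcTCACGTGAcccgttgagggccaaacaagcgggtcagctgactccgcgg
Atp6v0d1 (chr8:105566021-105566108, minus strand): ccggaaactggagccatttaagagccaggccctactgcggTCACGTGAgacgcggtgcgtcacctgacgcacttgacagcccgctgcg

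The 11 members with CACGTG were Atg3, Atg5, Atg7, Mcoln1, Lamp1, Ctsa, Ctsd, Ctsl, Gaa, Lgmn and Atp6v0d1. Their median log2 fold change was -0.10, with 7 of 11 below zero, and that of the 21 members whose windows held none was -0.05, with 13 of 21 below zero. Ulk1, Hexa and Psap, the 3 members with an unadjusted p below 0.05, had no match in their windows. A match is a string of letters and does not show binding.

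**Figure D2:**
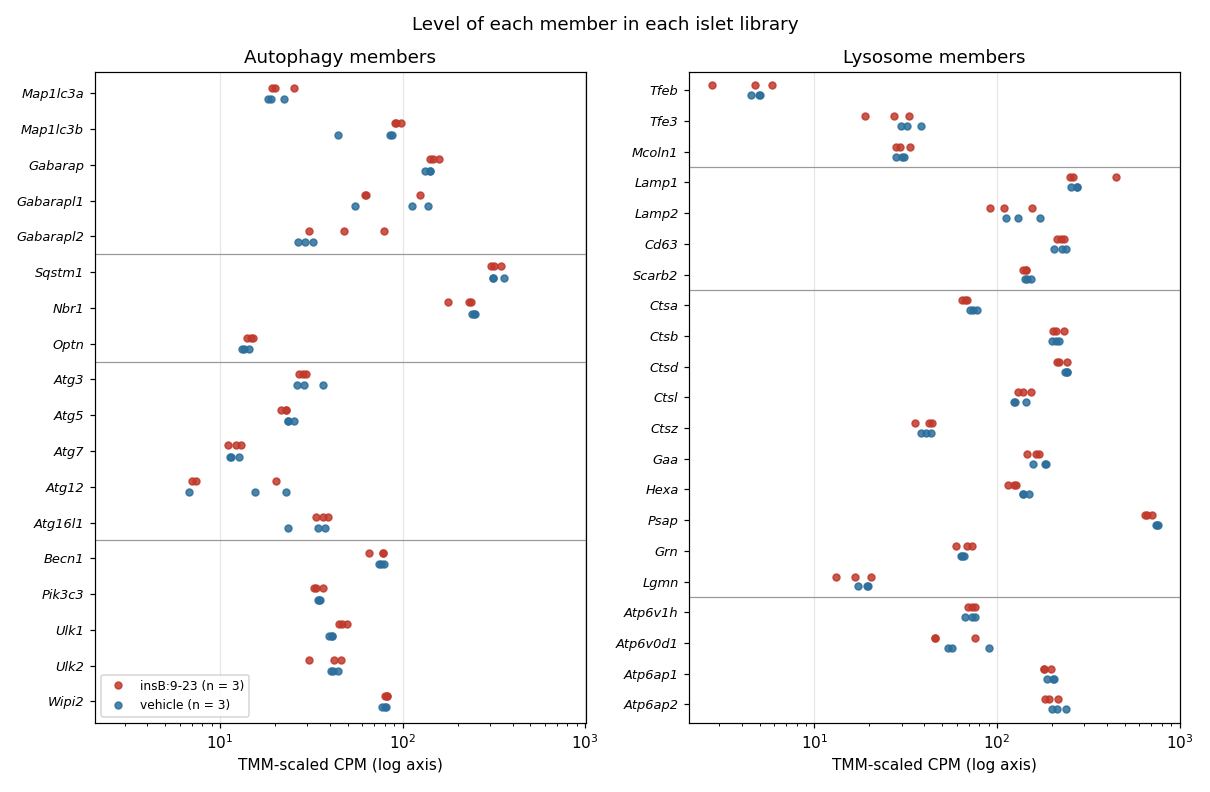
Levels of the 39 members in CPM on a log axis, by role, with 1 point per library (3 insB:9-23, 3 vehicle). For most genes the points of the groups interleave; Gabarapl2, Gabarapl1, Atg12 and Map1lc3b are spread widest.

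Initiation came first in order of action. Ulk1 (chr5:110784488-110810097, all gene coordinates in GRCm38), a kinase that starts autophagosome formation, had 49.4, 44.8 and 46.8 CPM in insB:9-23 libraries, against 41.0, 40.8 and 39.3 CPM in vehicle libraries. The lowest insB:9-23 library lay above the highest vehicle library. In edgeR this was a log2 fold change of 0.22 ± 0.07 (SE) with an adjusted p of 0.88. Its relative Ulk2 had 39.6 ± 7.80 CPM in insB:9-23 and 42.0 ± 1.749 CPM in vehicle (SD, n = 3 each), with groups that overlapped. Wipi2 (chr5:142627698-142670588), which reads the lipid mark on the forming membrane, was the most abundant of these genes per length, at 41.6 ± 0.808 CPM per kb in insB:9-23 and 40.5 ± 0.885 in vehicle. It had 82.5, 79.6 and 82.2 CPM in insB:9-23, against 79.6, 81.0 and 77.6 in vehicle, and its log2 fold change was 0.04 ± 0.06 (adjusted p = 0.94). Its highest library was only 1.06 times its lowest. The lipid kinase genes were as even between the groups: Becn1 stood at 73.8 ± 7.06 CPM in insB:9-23 and 76.5 ± 2.002 in vehicle, and Pik3c3 at 34.2 ± 2.11 in insB:9-23 and 34.9 ± 0.518 in vehicle. The 5 initiation and nucleation genes summed to 276 ± 13.0 CPM in insB:9-23 and 273 ± 1.76 CPM in vehicle.

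The conjugation machinery was low, with the highest library 3.40 times the lowest for Atg12, 1.65 for Atg16l1, 1.37 for Atg3 and less for others. Atg3 (chr16:45158785-45188538), the E2-like enzyme that hands ATG8 proteins to lipid, was its most abundant member per length at 13.8 ± 0.628 CPM per kb in insB:9-23 and 14.8 ± 2.53 in vehicle. It had 29.5, 28.4 and 27.0 CPM in insB:9-23, against 26.5, 36.4 and 28.7 in vehicle. These overlapped, and the log2 fold change was -0.11 ± 0.13 (adjusted p = 0.93). Atg12, the ubiquitin-like protein joined to ATG5, had 7.39, 7.06 and 20.4 CPM in insB:9-23, against 6.73, 15.5 and 22.8 in vehicle. Both groups held a library near 7 and a library above 20, and its log2 fold change of -0.37 ± 0.60 (adjusted p = 0.94) had the largest error of all members. That value rested on single libraries: it was -1.05 without insB:9-23 replicate 3 and 0.06 without vehicle replicate 3. Atg5, named after its values were seen, had 21.5, 22.9 and 23.1 CPM in insB:9-23, all below the 23.5, 23.5 and 25.3 CPM in vehicle, by little. Its log2 fold change was -0.10 ± 0.08 (adjusted p = 0.90). Atg7, the E1-like enzyme, stood at 12.1 ± 0.962 CPM in insB:9-23 and 11.8 ± 0.732 in vehicle. Atg16l1, which places the conjugation complex on the membrane, stood at 36.4 ± 2.80 CPM in insB:9-23 and 32.0 ± 7.36 in vehicle.

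Of the 5 ATG8 genes, 3 varied widely between libraries: Gabarapl2, Gabarapl1 and Map1lc3b. Gabarap (chr11:69991143-69994951) was its most abundant member per length, at 109.6 ± 6.22 CPM per kb in insB:9-23 and 103 ± 3.31 in vehicle. It had 141, 157 and 146 CPM in insB:9-23, against 142, 133 and 141 in vehicle, with a log2 fold change of 0.10 ± 0.07 (adjusted p = 0.89). Gabarapl2 (chr8:111940703-111953612, also known as GATE-16) had 30.6, 48.0 and 78.8 CPM in insB:9-23, against 29.2, 26.7 and 32.3 in vehicle. The vehicle libraries lay close together, insB:9-23 replicate 1 lay among them, and replicates 2 and 3 lay above. Its log2 fold change of 0.83 ± 0.34 (adjusted p = 0.88) was the highest of the 39, and was 0.42 ± 0.21 without insB:9-23 replicate 3, the library with the most acinar RNA. Gabarapl1 (chr6:129533160-129542346) had 125, 63.0 and 62.4 CPM in insB:9-23, against 112, 55.0 and 137 in vehicle. Each group held a library near 60 and a library above 110, and the log2 fold change was -0.28 ± 0.43 (adjusted p = 0.94); it was 0.00 without vehicle replicate 3.

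Map1lc3b (chr8:121590361-121598760), whose product LC3B is the usual marker of autophagosomes, had 90.9, 92.1 and 98.1 CPM in insB:9-23, against 85.6, 87.2 and 44.0 in vehicle. All insB:9-23 libraries lay above all vehicle libraries, but vehicle replicates 1 and 2 lay close below them and vehicle replicate 3 stood apart. Its log2 fold change was 0.37 ± 0.27 (adjusted p = 0.89), and 0.12 without vehicle replicate 3. Map1lc3a stood at 21.5 ± 3.34 CPM in insB:9-23 and 19.9 ± 2.24 in vehicle. The family summed to 413, 380.3 and 405 CPM in insB:9-23, against 387, 325 and 373 in vehicle, which overlapped. The median log2 fold change over the 5 genes was 0.11 with 4 above zero, but -0.03 with 2 above zero when libraries were scaled by their totals alone, where the median of all genes was -0.15. Near-identical processed copies of Gabarapl2 and Map1lc3b exist in the genome, but none of those annotated held more than 25 counts in a library.

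**Figure D3:**
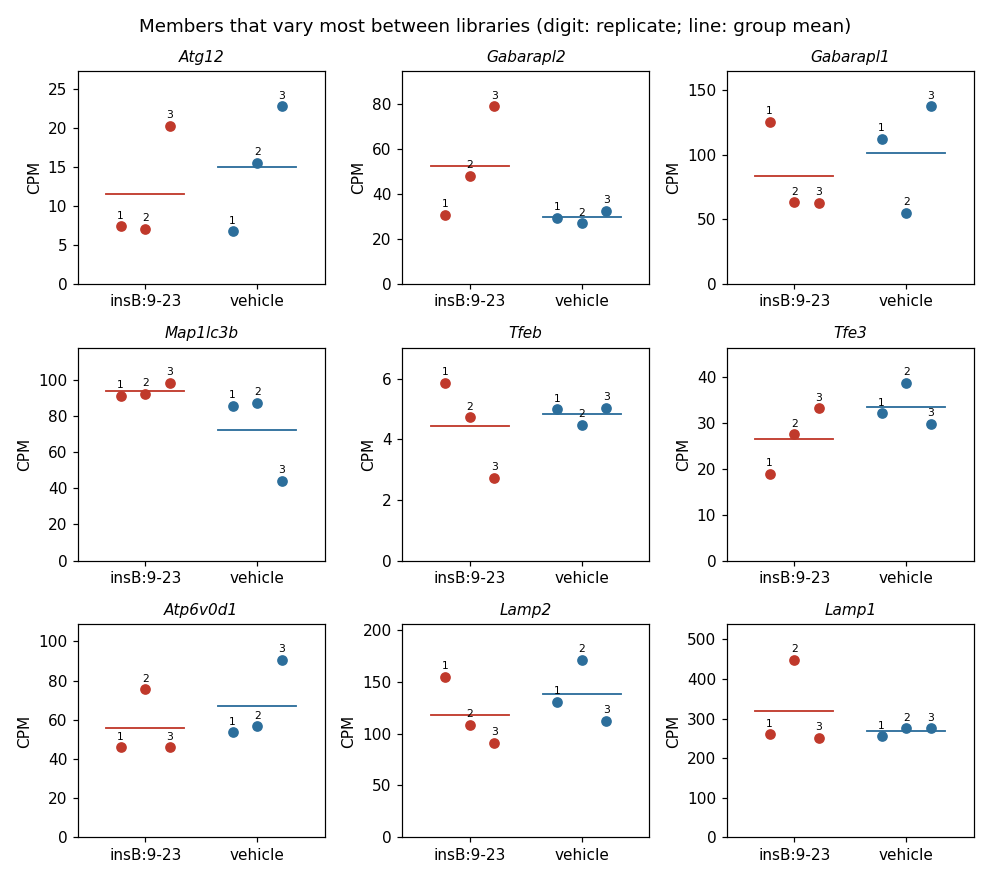
CPM per library for the members with the widest spread, where the highest library was at least 1.7 times the lowest; digits are replicates and lines group means. In Atg12 and Gabarapl1 both groups hold high and low libraries, and in Map1lc3b 1 vehicle library (44.0 CPM) lies apart from the other 5.

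Such spread between libraries was the exception. The highest library was at least 1.7 times the lowest for 9 of the 39 (23.1%), beside 27.6% of genes in the same range of level. The ratio reached 3.40 in Atg12, 2.95 in Gabarapl2, 2.50 in Gabarapl1 and 2.23 in Map1lc3b, and its median over the members was 1.23, beside 1.38 in that range. The libraries at the extremes were not the same from gene to gene: vehicle replicate 3 was the highest library for 12 members and the lowest for 6, and insB:9-23 replicate 3 the highest for 6 and the lowest for 10.

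Among the cargo receptors, Sqstm1 (chr11:50199366-50210827), whose product p62 carries ubiquitin-tagged cargo, was the most abundant per length, at 158 ± 10.6 CPM per kb in insB:9-23 and 161 ± 13.4 in vehicle. It had 345, 315 and 303 CPM in insB:9-23, against 312, 314 and 360.3 in vehicle. The groups overlapped, with an insB:9-23 library lowest and a vehicle library highest, and the log2 fold change was -0.03 ± 0.09 (adjusted p = 0.97). Nbr1, a related receptor named after its values were seen, had 231, 177 and 237.6 CPM in insB:9-23, against 238.5, 248 and 250.6 in vehicle. The groups did not overlap, though the nearest libraries differed by less than 1 CPM. Its log2 fold change was -0.19 ± 0.12 (adjusted p = 0.88). Optn, the receptor optineurin, was low and even at 14.7 ± 0.578 CPM in insB:9-23 and 13.7 ± 0.594 in vehicle.

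The 3 regulators of the lysosome had the lowest summed level of the 8 roles, in CPM and over few genes. Mcoln1 (chr8:3500457-3515232), the calcium channel TRPML1 whose opening leads to TFEB activation, had 33.3, 28.1 and 29.3 CPM in insB:9-23, against 30.1, 30.9 and 27.8 in vehicle. That is 14.6 ± 1.32 CPM per kb in insB:9-23 and 14.3 ± 0.782 in vehicle, with a log2 fold change of 0.03 ± 0.10 (adjusted p = 0.98). Tfe3 (chrX:7762560-7775202) had 18.9, 27.4 and 33.1 CPM in insB:9-23, against 32.0, 38.6 and 29.8 in vehicle. Its insB:9-23 replicate 3 lay among the vehicle libraries and the other insB:9-23 libraries lay below them. Its log2 fold change was -0.34 ± 0.22 (adjusted p = 0.88), and was -0.14 without insB:9-23 replicate 1 and -0.53 without insB:9-23 replicate 3. Tfeb had the lowest level of all members, at 4.44 ± 1.58 CPM in insB:9-23 and 4.83 ± 0.314 in vehicle. TFEB and TFE3 are controlled largely by their movement into the nucleus, which transcript counts do not measure.

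Membrane proteins of the lysosome were abundant. Cd63 (chr10:128900989-128912822), a tetraspanin of late endosomes, lysosomes and secreted vesicles, was the highest of them per length at 211 ± 9.12 CPM per kb in insB:9-23 and 209.7 ± 15.7 in vehicle. It had 214, 234 and 224 CPM in insB:9-23, against 227, 205 and 237 in vehicle, with a log2 fold change of 0.01 ± 0.08 (adjusted p = 0.99). Its annotated copy Cd63-ps held 824 to 1134 counts in insB:9-23 and 1268 to 1455 in vehicle, so a few of its reads may have been split. Lamp1 (chr8:13159161-13175338), the main glycoprotein lining the lysosome, had 259.9, 448 and 251.2 CPM in insB:9-23, against 255, 275 and 275 in vehicle. The second insB:9-23 library stood far above the other 5, which lay between 251.2 and 275. A log2 fold change of 0.25 ± 0.24 (adjusted p = 0.91) rested on that library, and was -0.07 without it. Lamp2 stood at 118 ± 32.8 CPM in insB:9-23 and 138 ± 30.1 in vehicle. Scarb2, the receptor that carries glucocerebrosidase to the lysosome, stood at 142 ± 3.38 CPM in insB:9-23 and 148 ± 5.53 in vehicle.

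The hydrolases and their cofactors, together called the hydrolases here, were the role with the most members and had the highest summed level. The groups did not overlap for 3 of the 10 (30%), all lower in insB:9-23. Over all genes the share was 13.5% in either direction and 7.12% in that one. Among the 10412 genes in the members' range of level it was 14.8%, with 603 genes higher and 938 lower. Psap (chr10:60277627-60302597) encodes prosaposin, the precursor of the saposins that help hydrolases reach sphingolipids, and was the member with the highest level per length, 252 ± 11.5 CPM per kb in insB:9-23 and 282 ± 4.13 in vehicle. It had 703, 661 and 644 CPM in insB:9-23, against 761, 750.5 and 739 in vehicle. Each insB:9-23 library lay below each vehicle library, with a log2 fold change of -0.16 ± 0.06 and an adjusted p of 0.88. Hexa (chr9:59539540-59565109), the alpha subunit of beta-hexosaminidase A that cleaves GM2 ganglioside, had 127, 124 and 115 CPM in insB:9-23, against 139, 138 and 149 in vehicle. Again the groups were apart, with a log2 fold change of -0.22 ± 0.07 and an adjusted p of 0.88. Ctsa, the carboxypeptidase cathepsin A that shields other hydrolases and was named after its values were seen, had 64.1, 66.5 and 68.5 CPM in insB:9-23, against 70.8, 74.1 and 77.6 in vehicle. The log2 fold change was -0.16 ± 0.07 (adjusted p = 0.88).

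The other 7 genes of the hydrolase role overlapped between the groups. Ctsd, the aspartic protease cathepsin D, stood at 106 ± 7.15 CPM per kb in insB:9-23 and 113 ± 1.78 in vehicle, and Ctsl, the cysteine protease cathepsin L, at 71.5 ± 5.84 in insB:9-23 and 66.5 ± 5.39 in vehicle. The cysteine protease Ctsb had 215 ± 16.7 CPM in insB:9-23 and 209.6 ± 9.50 in vehicle, and Ctsz 40.7 ± 4.34 in insB:9-23 and 41.1 ± 2.57 in vehicle. Gaa, the glycogen-cleaving acid alpha-glucosidase, had 159.9 ± 12.04 CPM in insB:9-23 and 176 ± 16.2 in vehicle. Grn, the progranulin gene, had 67.0 ± 6.77 CPM in insB:9-23 and 64.6 ± 1.65 in vehicle, and Lgmn, the asparagine-specific protease legumain, 16.7 ± 3.61 in insB:9-23 and 18.9 ± 1.25 in vehicle.

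Summed over the 10 genes, transcripts of hydrolases and their cofactors stood at 1750, 1738 and 1684 CPM in insB:9-23, against 1859, 1832 and 1851 in vehicle. The sums did not overlap, and the insB:9-23 mean differed from the vehicle mean by -6.71%. Sums of the other roles overlapped; of single genes in the members' range of level, 14.8% had groups that did not. Psap made up much of each hydrolase sum. The other 9 genes summed to 1047, 1077 and 1039.9 CPM in insB:9-23, against 1098, 1082 and 1112 in vehicle, a difference of -3.92%. The lowest hydrolase sum was that of insB:9-23 replicate 3, the library with the most acinar RNA. The median log2 fold change of the 10 genes was -0.11 with 7 below zero. It was -0.04 with 6 below zero without that library, and -0.02 with 6 below zero when the acinar marker level was a covariate. Under library totals alone it was -0.27 with 10 below zero, where the median of all genes was -0.15. The difference from the median of all genes was -0.12 both there and in the main fit. For Psap the log2 fold change was -0.13 without that library and -0.13 with the covariate. Hexa stood at -0.17 without the library and -0.18 with the covariate, and Ulk1 at 0.23 without the library and 0.21 with the covariate. Under library totals alone Ulk1 stood at 0.07, Hexa at -0.36 and Psap at -0.31, beside the median of -0.15 over all genes. Outside the members, 44 other lysosomal hydrolase genes had a median log2 fold change of -0.04 in the main fit. Their groups did not overlap for 6 of the 44 (13.6%), with 1 higher and 5 lower in insB:9-23.

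**Figure D4:**
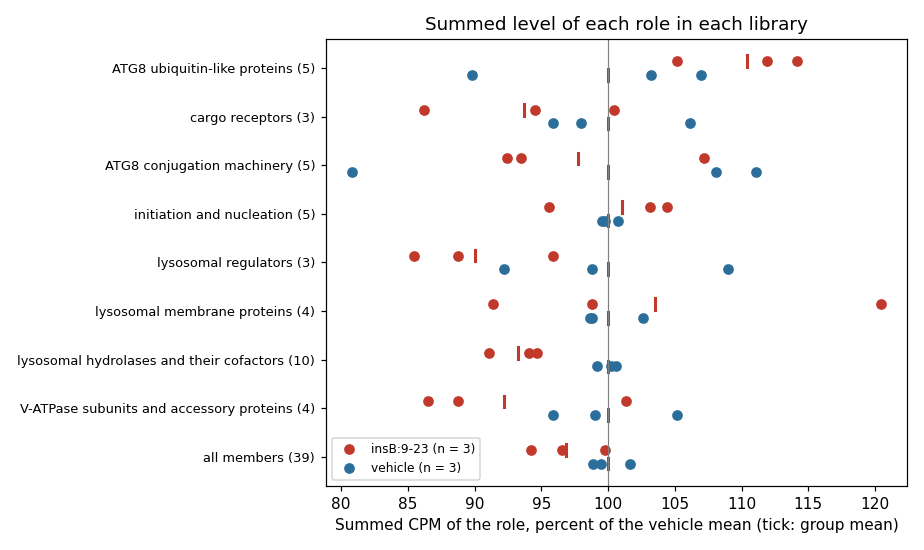
Summed CPM of each role in every library as a percent of the vehicle mean, with insB:9-23 points above vehicle points and a tick at each group's mean. Of the 8 roles only the hydrolases have groups that are apart, since their sums do not overlap (1684 to 1750 CPM in insB:9-23, 1832 to 1859 CPM in vehicle).

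The 4 V-ATPase members overlapped between the groups. Atp6ap2 (chrX:12587801-12617049), the accessory subunit also called the prorenin receptor, was the highest of them per length over all libraries, at 84.9 ± 6.83 CPM per kb in insB:9-23 and 93.7 ± 8.16 in vehicle. Its partner Atp6ap1 was close, at 84.99 CPM per kb in insB:9-23 and 90.7 in vehicle. Atp6ap2 had 184, 215 and 194 CPM in insB:9-23, against 214, 201 and 238 in vehicle, with a log2 fold change of -0.14 ± 0.09 (adjusted p = 0.88). Atp6v1h, a regulatory subunit of the pump's cytosolic part, stood at 72.6 ± 3.18 CPM in insB:9-23 and 71.8 ± 4.59 in vehicle. Atp6v0d1, of the membrane part and named after its values were seen, varied more, with 45.9, 75.5 and 45.9 CPM in insB:9-23, against 53.6, 56.7 and 90.5 in vehicle. The role summed to 512 ± 44.4 CPM in insB:9-23 and 555 ± 26.2 in vehicle. Its median log2 fold change was -0.12 with 3 of 4 below zero, and -0.05 without vehicle replicate 3. Under library totals alone it was -0.27, where the median of all genes was -0.15.

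Some of these counts could hold reads of other genes. The exons of 13 members overlap those of a gene on the opposite strand, and no source used here states the strand setting of the counting. The overlap reaches 43.9% of the exon bases in Becn1, 28.3% in Gabarapl1, 26.8% in Ctsl and 17.3% in Sqstm1, but these partners had at most 37, 42, 0 and 97 counts in a library, against at least 3558, 2856, 7015 and 13876 for the members. Hexa shares 12.8% with Tmem202, which had at most 4 counts. Ctsa shares 10.5% with Pltp (up to 467 counts) and 6.87% with Neurl2 (up to 153 counts), and itself had at least 3136. Partners with more counts were Fdft1 beside Ctsb (up to 2445 counts, 12.8% of exon bases), Grtp1 beside Lamp1 (up to 1316 counts, 9.31%), Zcchc14 beside Map1lc3b (up to 3631 counts, 0.772%) and Nelfcd beside Ctsz (up to 1680 counts, 0.694%). How many reads of these stretches belong to which gene was not tested.

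A wider list of 170 other genes of autophagy and the lysosome was also chosen by function, with earlier results of these data known. It held 0 called genes in edgeR among the 167 tested. DESeq2 called Vps18 and Ids, and 116 of all 17016 genes. The median log2 fold change was -0.04 with 67 above zero and 100 below (59.9%), beside 48.5% below over all genes and 53.4% in the members' range. An unadjusted p below 0.05 was found for 11 of them (6.59%), of which 2 were higher and 9 lower in insB:9-23; that share is near the 5.55% of all genes and the 6.48% of genes in the members' range of level. Over all genes 466 such genes were higher and 478 lower, and in the members' range of level 286 were higher and 389 lower. Class medians ran from -0.08 for lysosomal sorting to 0.00 for the V-ATPase. The groups did not overlap for 27 of the 167 (16.2%), with 7 higher and 20 lower in insB:9-23. In the members' range of level it was 14.8%, with 603 genes higher and 938 lower. By class the share ran from 5% for nutrient control of lysosomes to 35.3% for the V-ATPase (6 of 17, all lower).

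Vps18, a subunit of the HOPS and CORVET complexes that tether membranes for fusion with endosomes and lysosomes, had the smallest p. It had 17.6, 15.3 and 16.5 CPM in insB:9-23, against 24.4, 26.9 and 25.3 in vehicle. The groups lay well apart with little spread, and the log2 fold change was -0.63 ± 0.09. Its adjusted p was 0.23 in edgeR and 2.3e-05 in DESeq2, and it ran from 2.3e-05 to 0.93 over all alternatives.

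Wdfy3, the scaffold protein ALFY of selective autophagy, had 74.6, 79.4 and 64.8 CPM in insB:9-23, against 95.01, 91.4 and 91.1 in vehicle (log2 fold change -0.34 ± 0.09, adjusted p = 0.88). Ids, the iduronate sulfatase, had 101, 102 and 87.8 CPM in insB:9-23, against 360.4, 115 and 357.5 in vehicle. Its vehicle replicate 2 lay near the insB:9-23 libraries and the other vehicle libraries far above. The log2 fold change was -1.52 ± 0.44, with an adjusted p of 0.88 in edgeR, 0.033 in DESeq2 and 0.012 in edgeR without vehicle replicate 2. Among genes with the higher level in insB:9-23, the sulfatase Sgsh had 6.11, 12.6 and 17.5 CPM there, against 5.67, 3.41 and 4.27 in vehicle (log2 fold change 1.44 ± 0.42, adjusted p = 0.88). Atg13, a partner of ULK1, had 65.1, 106 and 97.7 CPM in insB:9-23, against 59.2, 59.1 and 71.6 in vehicle, with overlap. Vamp8, a SNARE of autophagosome fusion, had 34.3, 37.1 and 35.6 CPM in insB:9-23, against 31.3, 27.9 and 32.8 in vehicle.

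**Figure D5:**
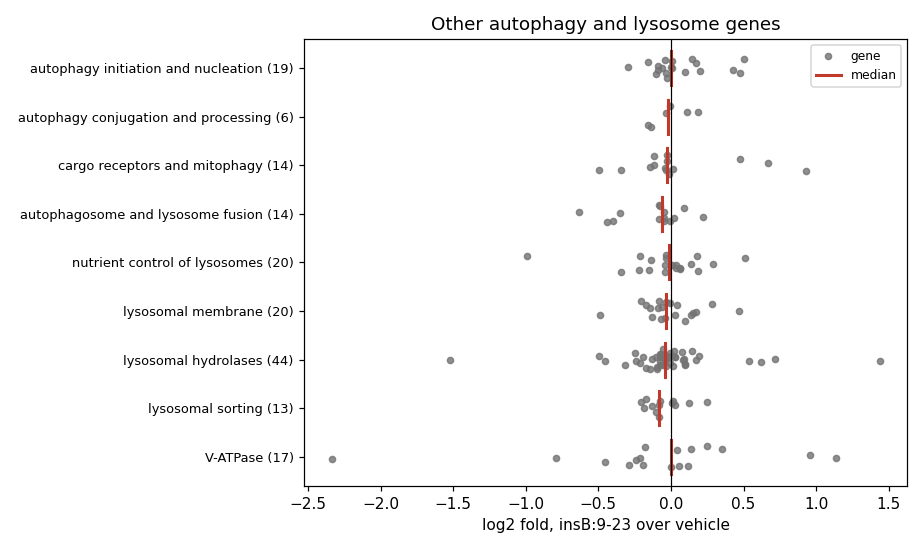
Log2 fold changes (insB:9-23 over vehicle) of 167 other autophagy and lysosome genes by class, 1 point per gene with the class median. Class medians lie between -0.08 and 0.00, and no gene passed an adjusted p of 0.05 in edgeR.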

How the data were processed

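RNA-seq counts were compared between 3 insB:9-23 and 3 vehicle libraries, grouped by sample title. Per the labels' protocols, total RNA was isolated by TRIzol and a KAPA stranded kit was used for the libraries. The authors deposited raw counts per Ensembl gene, 1 column per library, per the file headers. HISAT, featureCounts 1.5.0-p3, DESeq 1.8.3 and GRCm38 are named in the submitters' processing notes without their roles; neither the annotation release nor the strand setting is given. Symbols came from GENCODE M21 (55240 of 55421 IDs; the rest held at most 0.003% of counts).

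Counts were fitted in edgeR 4.0.16 (R 4.3.3) with filterByExpr, TMM scaling and the robust quasi-likelihood F test over 17016 genes. P-values were adjusted by Benjamini and Hochberg over all of them (threshold 0.05), and standard errors are the log2 fold change over the root of F. CPM per kb divides by the principal transcript's length; shares of marker lists use library totals. At the TMM-scaled depths 3 counts equal 0.0475 to 0.0655 CPM. Marker, member and pathway lists were chosen with earlier results of these data known. A gene of the marker lists is not reported here. Values per library are given for members with an unadjusted p below 0.05, the 3 highest and 3 lowest fold changes, the most abundant member per length in each role, and the 3 other pathway genes with the smallest p in each direction; genes outside this rule are marked.

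No label says which animal or pool a library came from, so the p-values rest on library-to-library spread that may be technical. Libraries of 1 group differed by a chi-square of 79.96 to 247.1 per degree of freedom, so none repeats another. On data simulated for this comparison 16451 genes were tested, and changed genes that failed the filter are left out of the counts. Of the tested genes set to change, edgeR found 47 of 94 at 4-fold and 7 of 95 at 2-fold. It made 6 false calls in 60, and with no gene changed it called 6 of 16418. The 16 alternatives covered scaling (RLE, upper quartile, library totals), DESeq2 1.42.0, limma-voom (limma 3.58.1), filters on low counts, genes at 0 in 1 library and at least 5 CPM in another left out, the replicate block, an acinar covariate, and each library left out.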

Additional observations from a re-analysis of the deposited data

How the results depend on the processing

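No member was called under any of the 16 alternatives, with the lowest adjusted p at 0.48 in DESeq2. Simulated 2-fold changes, drawn over genes of all levels, were mostly missed at this depth and number of libraries; the members' own median standard error was 0.094. The members' median log2 fold change, -0.05, was -0.21 under library totals alone, where all genes moved to -0.15, so the difference between them stayed at -0.06; it was -0.022 with the acinar covariate and -0.071 to -0.014 with 1 library left out. Genes called, 14 of all tested, were 116 in DESeq2, 9 with the acinar covariate and 16 to 26 with 1 library left out (26 without insB:9-23 replicate 3, 25 without insB:9-23 replicate 1, 23 without vehicle replicate 1). With the replicate block 0 genes were called by edgeR (605 with an unadjusted p below 0.05), and 0 members had an unadjusted p below 0.05. Same-numbered libraries did not deviate together (correlations -0.064 to -0.025). That gave no sign of a shared shift by number, but it cannot show that same-numbered libraries were not handled as pairs. Members with an unadjusted p below 0.05 were 0 to 3 with 1 library left out, 0 without vehicle replicate 3, and 2 (Atg12 and Nbr1) with the acinar covariate. Upper quartile scaling, DESeq2 and leaving out genes at 0 in 1 library each gave 4, where Gabarapl2 joined Ulk1, Hexa and Psap. Library totals alone also gave 4, namely Ctsa, Gabarapl2, Nbr1 and Tfe3, without Ulk1, Hexa or Psap. Other pathway genes called were 2 in DESeq2 and 0 to 2 with 1 library left out: Atp6v0e2 and Tollip without vehicle replicate 1, Ids without vehicle replicate 2. Under library totals 34 members lay below zero, against 23; of the members named by the rule, Gabarap (-0.053), Wipi2 (-0.12), Mcoln1 (-0.12) and Cd63 (-0.14) turned negative. Of the same members, leaving out 1 library turned the sign of Mcoln1 (-0.044 to 0.079), Lamp1 (-0.071 to 0.40), Cd63 (-0.052 to 0.053), Sqstm1 (-0.087 to 0.036), Atg3 (-0.20 to 0.036), Atg12 (-1.05 to 0.059) and Gabarapl1 (-0.69 to 0.00037). The causes were not tested. The other members named kept their direction but not their size under all 16 alternatives: Ulk1 ran from 0.07 to 0.25, Hexa from -0.36 to -0.17, Psap from -0.31 to -0.13, Gabarapl2 from 0.40 to 1.11, Map1lc3b from 0.12 to 0.53, Tfe3 from -0.53 to -0.14 and Atp6ap2 from -0.29 to -0.07.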
